A study of Mus musculus with 17 samples.

Results

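The expression of 7 genes was followed in mouse gastrocnemius, a calf muscle of mainly fast fibres: 6 protein methyltransferase genes (Mettl21c, Mettl21e, Mettl21a, Smyd1, Smyd2 and Setd3) and Vcp, the substrate gene of METTL21C. They were taken by symbol from a table of 45777 genes, and all 7 passed the filter on low counts that 16731 genes passed. Messenger RNA was sequenced in 17 male C57BL/6J mice (spelled C56BL/6J in the labels) that were housed one to a cage and fed the AIN-93G purified diet. The ALL group (n = 4) was middle-aged and had 3% allulose, a rare sugar, in place of cellulose for 12 weeks. The Middle-aged group (n = 6, labelled as aging mice of 12 months) and the Mature group (n = 7, labelled as young mice) had the same diet without allulose. By the study's account the mice of the first 2 groups were 48 weeks old at allocation and 61 weeks old at the end, and the Mature mice were 8 and 21 weeks old. Mettl21c was chosen by its values in these same mice, as a gene lower in Middle-aged than in Mature mice whose level in ALL mice was back near the Mature level. Its values are therefore given as a description with no test.

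METTL21C is a lysine methyltransferase restricted to skeletal muscle. In mice it is found in fibres that carry the slow myosin MYH7, and it trimethylates VCP, an ATPase that pulls ubiquitin-tagged proteins out of complexes for degradation by the proteasome and autophagy. METTL21E is its closest muscle-specific relative and has been linked in mice to fibre size and proteasome activity, METTL21A methylates HSP70 chaperones, SMYD1 is needed for sarcomere assembly in striated muscle, SMYD2 methylates HSP90, and SETD3 methylates a histidine of actin. All of these enzymes draw their methyl group from S-adenosylmethionine.

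Mettl21c (chr1:44009399-44042620) and Mettl21e (chr1:44204070-44218931) lie on the same strand of mouse chromosome 1 (build GRCm38, RefSeq), 161449 bases apart. Their coding sequences, of 744 and 732 bases, were 68.4% identical over 697 aligned bases. To show how far the 2 genes can be told apart, their coding exon of equal length is printed here, exon 4 of 5 in both, 5′ to 3′ on the minus strand from the GENCODE vM21 transcripts, with the bases that match position by position in capitals. The Mettl21c exon is chr1:44010532-44010649 and the Mettl21e exon is chr1:44210164-44210281.
Mettl21c: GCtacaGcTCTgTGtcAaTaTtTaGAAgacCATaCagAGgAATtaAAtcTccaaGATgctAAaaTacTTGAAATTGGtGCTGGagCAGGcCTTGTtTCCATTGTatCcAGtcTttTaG
Mettl21e: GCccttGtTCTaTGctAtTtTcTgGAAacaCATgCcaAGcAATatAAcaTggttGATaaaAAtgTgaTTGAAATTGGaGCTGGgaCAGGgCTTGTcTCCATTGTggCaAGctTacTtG
The exons matched at 71 of 118 bases. The longest run shared by the whole transcripts was 12 bases, against reads of 75 bases, and Mettl21c shared no more than 11 bases in a row with the transcripts of Mettl21a or Vcpkmt on either strand.

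The levels of the 7 genes spanned a wide range. On the length-corrected TPM scale, the median over 17 mice was 276 for Vcp (245 to 324), 245 for Smyd2 (182 to 294), 241 for Smyd1 (206 to 282), 131 for Mettl21c (62.3 to 193), 53.7 for Setd3 (48.3 to 89.5), 5.09 for Mettl21a (4.19 to 6.64) and 1.5 for Mettl21e (0.535 to 5.33). Neighbours in this order overlapped in range, except that all values of Mettl21c lay below those of Smyd1 and all values of Mettl21a below those of Setd3. The overlap of Setd3 with Mettl21c rested on 3 mice of high Setd3 TPM, described below, as the other 14 reached at most 62.1 TPM. Mettl21c stood at percentile 96.2 of mean TPM among the tested genes, Setd3 at 92.1 and Mettl21a at 56.7. The genes also differed in their spread over mice. The coefficient of variation of CPM (read counts scaled to library size, with TMM factors) was 58.0% for Mettl21e and 26.1% for Mettl21c, and between 5.62% for Setd3 and 13.2% for Smyd2 in the other members.

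**Figure D1:**
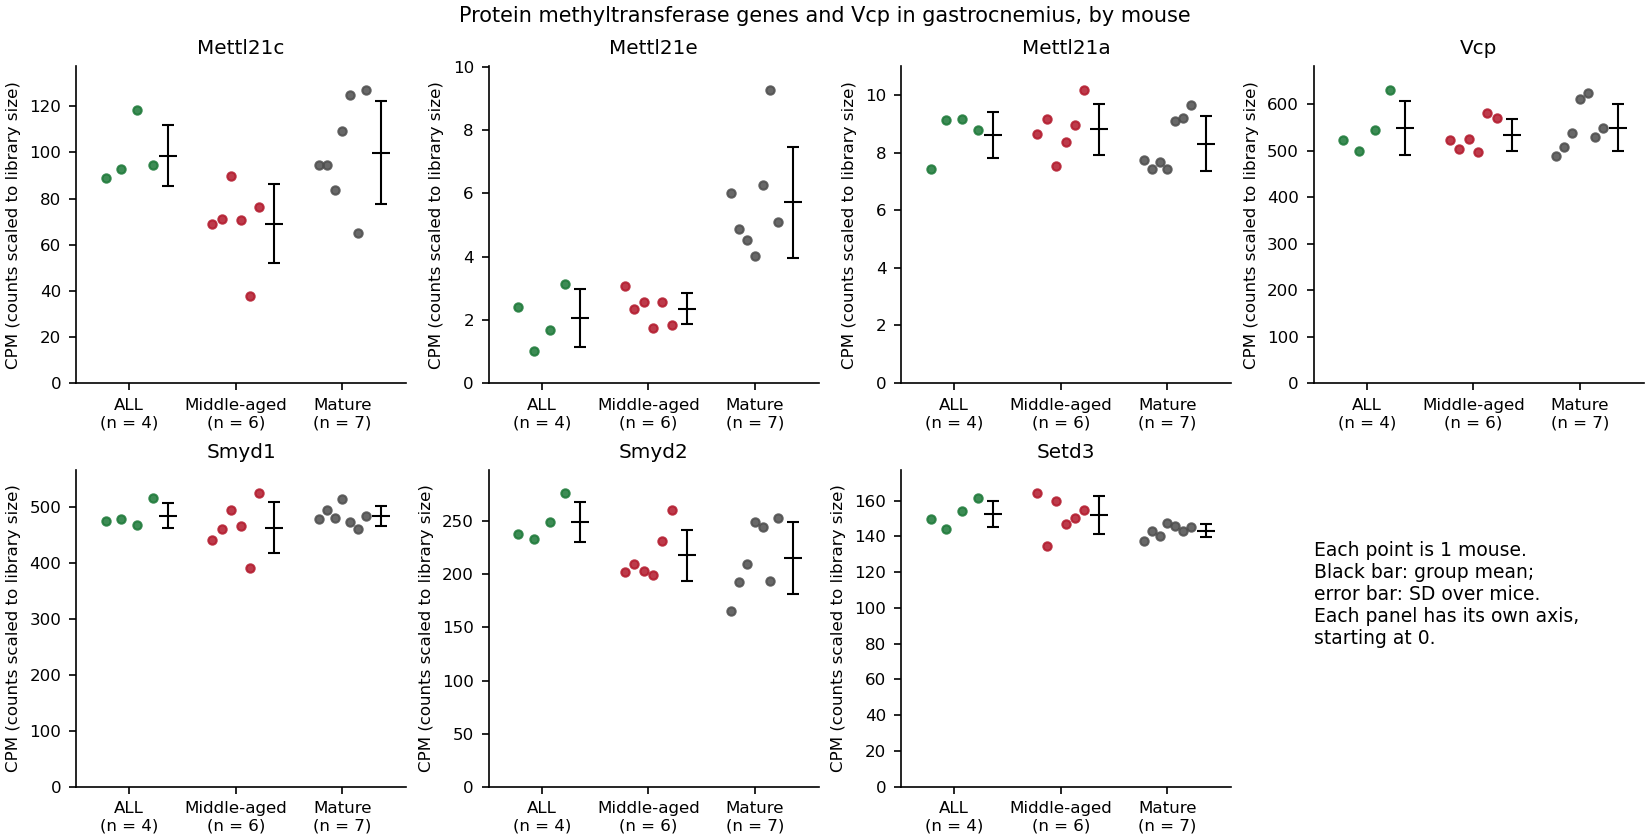
CPM (read counts scaled to library size) of the 7 genes in each of 17 mice, with 1 panel and 1 axis from 0 per gene, groups in columns, points for mice and black bars for mean and SD. Mettl21e of all ALL and Middle-aged mice sits at or below 3.12 CPM, under the lowest Mature mouse at 4.01 CPM, and Mettl21c averages 98.7 CPM in ALL, 69.2 CPM in Middle-aged and 99.9 CPM in Mature mice.

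Mettl21c had 89.0, 92.8, 118 and 94.5 CPM in the 4 ALL mice. In Middle-aged mice it ran between 37.8 and 89.7 CPM with a median of 71.0, and in Mature mice between 65.0 and 127 CPM with a median of 94.7. The lowest ALL mouse was thus within 1 CPM of the highest Middle-aged mouse, while 5 of 6 Middle-aged mice lay inside the range of the Mature mice and 1, replicate 5, lay below it. Group means were 98.7 ± 13.3 CPM in ALL, 69.2 ± 17.1 CPM in Middle-aged and 99.9 ± 22.4 CPM in Mature mice (SD). The log2 fold change (logFC) from edgeR, a negative binomial model of the counts fitted to all 3 groups, was -0.53 (SE 0.17) for Middle-aged minus Mature mice, 0.51 (SE 0.19) for ALL minus Middle-aged mice and -0.02 (SE 0.19) for ALL minus Mature mice. These are the values that selected the gene. Its score, the size of the Middle-aged difference over the size of the ALL difference from Mature, was 29.2, rank 2 of 1472 genes scored, and the ratio is large because its denominator is close to 0.

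Over 26 processing alternatives, with each mouse left out in turn among them, the logFC of Mettl21c stayed between -0.79 and -0.41 for Middle-aged minus Mature mice and between 0.39 and 0.72 for ALL minus Middle-aged mice. For ALL minus Mature mice it lay between -0.12 and 0.05, with the opposite sign under 4 alternatives. The libraries fell into a class of high (20.2% to 23.5%) and a class of low (15.2% to 18.5%) mitochondrial share of counts, which the labels do not explain. Among the high-share mice Mettl21c averaged 89.0 CPM in ALL (n = 1), 76.6 CPM in Middle-aged (n = 3) and 90.9 CPM in Mature mice (n = 3). Among the low-share mice it averaged 102 CPM in ALL (n = 3), 61.8 CPM in Middle-aged (n = 3) and 107 CPM in Mature mice (n = 4). The log2 ratio of Middle-aged to Mature means was -0.25 in the high-share class and -0.79 in the low-share class. The 1 high-share ALL mouse lay inside the range of the high-share Mature mice (83.8 to 94.7 CPM). It also lay below the highest high-share Middle-aged mouse (89.7 CPM). The mice are those that selected the gene, so neither the alternatives nor the classes give its pattern further support.

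Since METTL21C protein is known from slow fibres in mice, its transcript was set beside slow fibre markers. The summed level of 10 slow fibre markers varied widely between mice, at 369 to 1494 CPM in ALL, 167 to 1100 CPM in Middle-aged and 190 to 2889 CPM in Mature mice, with no marker at 0. All 10 had a positive logFC for ALL minus Middle-aged mice (median 0.60, against -0.00 over all tested genes) and a negative one for Middle-aged minus Mature mice (median -0.82, against 0.01). None of the 10 passed the test in any comparison. Myh7, the slow myosin gene, had an edgeR logFC of 0.59 (SE 0.87, adjusted p = 0.9997) for ALL minus Middle-aged mice and -1.19 (SE 0.78, adjusted p = 0.374) for Middle-aged minus Mature mice. Across the 17 mice Mettl21c correlated only weakly with the summed markers, at r = 0.26 (Spearman 0.11), and at r = 0.02 without the 2 mice farthest from the median of the markers. Mature replicates 4 and 7 had Mettl21c levels of 109 and 127 CPM at slow fibre sums of 190 and 284 CPM, among the lowest of all mice, while ALL replicate 3 and Mature replicate 5, with the highest sums of 1494 and 2889 CPM, had 118 and 125 CPM of Mettl21c. Of 12 fast fibre markers 1 passed the test for Middle-aged minus Mature mice, where 10.3% of all tested genes were called. It was the calcium buffer gene Casq1, at an edgeR logFC of -0.37 (SE 0.11, adjusted p = 0.0421). The part of fibre type in the level of Mettl21c was not tested.

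**Figure D2:**
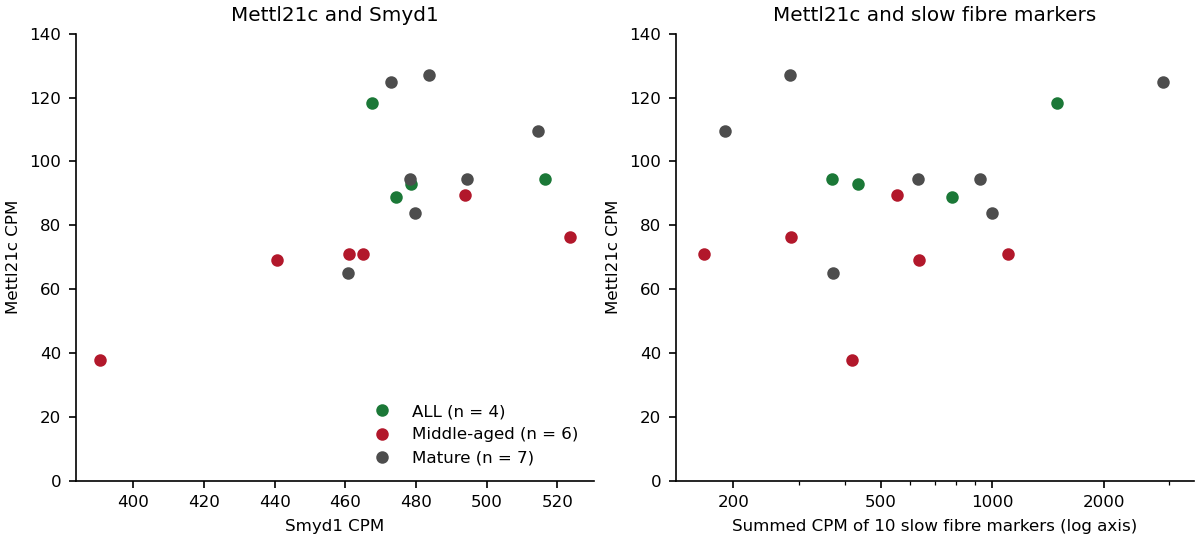
Mettl21c CPM against Smyd1 CPM (left, x axis not from 0) and against the summed CPM of 10 slow fibre markers (right, log x axis), 1 point per mouse, coloured by group. The points rise together on the left (r = 0.69), where the Middle-aged mouse at 391 Smyd1 CPM and 37.8 Mettl21c CPM lies far out, and show no such rise on the right (r = 0.26).

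Mettl21e, the neighbouring relative, had a different pattern. It had 2.41, 1.02, 1.67 and 3.12 CPM in ALL mice. It ran between 1.74 and 3.08 CPM in Middle-aged mice (median 2.46) and between 4.01 and 9.28 CPM in Mature mice (median 5.10). Neither ALL nor Middle-aged mice overlapped the Mature mice, and ALL and Middle-aged mice overlapped each other. The edgeR quasi-likelihood test, with p adjusted over all genes tested, gave a logFC of -1.28 (SE 0.23, adjusted p = 0.0014) for Middle-aged minus Mature mice, which is 0.412 of the Mature level. For ALL minus Mature mice it gave -1.48 (SE 0.27, adjusted p = 0.0029), and for ALL minus Middle-aged mice -0.20 (SE 0.27, 95% interval -0.76 to 0.36, adjusted p = 0.9997). The first 2 comparisons share the Mature mice. Both calls stood under all 26 alternatives, with adjusted p of up to 0.0496 and 0.0360. Mature replicate 6 was high, at 9.28 CPM against 6.26 CPM in the next Mature mouse, and it was also the Mature mouse with the lowest Mettl21c. In high-share mice Mettl21e averaged 2.41 CPM in ALL, 2.47 CPM in Middle-aged and 5.13 CPM in Mature mice, and in low-share mice 1.94, 2.25 and 6.16 CPM in the same groups.

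One gene beside Mettl21e moved with it. Gm15833, a processed pseudogene on the opposite strand (GENCODE chr1:44212162-44213118), lies within the span of Mettl21e. In the GENCODE model 0 of its 957 bases are on the exons of the Mettl21e transcript. The RefSeq record matched to the counts is longer (chr1:44211725-44213629), and its overlap with those exons was not examined. Gm15833 averaged 1.66 ± 0.14 CPM in ALL, 1.74 ± 0.61 CPM in Middle-aged and 3.50 ± 0.62 CPM in Mature mice (SD), with an edgeR logFC of -1.01 (SE 0.19, adjusted p = 0.00176) for Middle-aged minus Mature mice and -1.08 (SE 0.22, adjusted p = 0.0062) for ALL minus Mature mice. The library kit marks strand, but no source used here says that the counting used it. How far reads of Mettl21e within that span were counted for Gm15833, or the reverse, was not tested. The other tested neighbours, Tpp2, Tex30 and Ercc5, passed in no comparison. On the side of Mettl21e where Gm15833 lies, no gene beyond Gm15833 was examined. Between Middle-aged and Mature mice Tpp2, the peptidase gene next to Mettl21c, had a logFC of 0.02 (SE 0.06), Tex30 on its other side 0.11 (SE 0.13) and Ercc5, the DNA repair gene next to Mettl21e, -0.12 (SE 0.08).

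The other 5 members passed the test in no comparison. Mettl21a averaged 8.62 ± 0.80 CPM in ALL, 8.81 ± 0.89 CPM in Middle-aged and 8.31 ± 0.95 CPM in Mature mice. Its logFC was 0.09 (95% interval -0.09 to 0.26) for Middle-aged minus Mature mice and -0.03 (-0.24 to 0.18) for ALL minus Middle-aged mice. Vcp, whose product METTL21C methylates, had 522, 499, 544 and 631 CPM in ALL mice, 497 to 580 CPM in Middle-aged mice (median 523) and 488 to 624 CPM in Mature mice (median 538). The ranges of the 3 groups lay over one another, and the intervals of its logFC were -0.19 to 0.11 for Middle-aged minus Mature mice, -0.13 to 0.22 for ALL minus Middle-aged mice and -0.17 to 0.17 for ALL minus Mature mice. Levels of transcript say nothing of how far VCP protein is methylated, which was not measured.

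Smyd1, the sarcomere assembly gene, had 474, 479, 468 and 516 CPM in ALL mice, 391 to 524 CPM in Middle-aged mice (median 463) and 461 to 515 CPM in Mature mice (median 480). Its logFC was 0.07 (95% interval -0.08 to 0.21) for ALL minus Middle-aged mice and -0.06 (-0.19 to 0.06) for Middle-aged minus Mature mice. The Middle-aged mice held both the lowest and the highest Smyd1 value of the 17 mice. Smyd2 had 238, 233, 249 and 276 CPM in ALL mice, 199 to 261 CPM in Middle-aged mice (median 207) and 165 to 253 CPM in Mature mice (median 210). Its logFC of 0.21 (SE 0.11, 95% interval -0.02 to 0.43, adjusted p = 0.257) for ALL minus Mature mice was the farthest from 0 of these 5 genes in any comparison, and it was 0.19 (-0.04 to 0.43, adjusted p = 0.9997) for ALL minus Middle-aged mice. Smyd2 also moved with the mitochondrial share of the libraries. In high-share mice it averaged 238 CPM in ALL, 202 CPM in Middle-aged and 189 CPM in Mature mice, and in low-share mice 253, 234 and 235 CPM in the same groups. The ALL group holds 1 high-share mouse of 4, against 3 of 6 Middle-aged and 3 of 7 Mature mice. The part of this class in the level of Smyd2 was not tested. Smyd2 was called under none of the 26 alternatives, a term for this class among them.

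**Figure D3:**
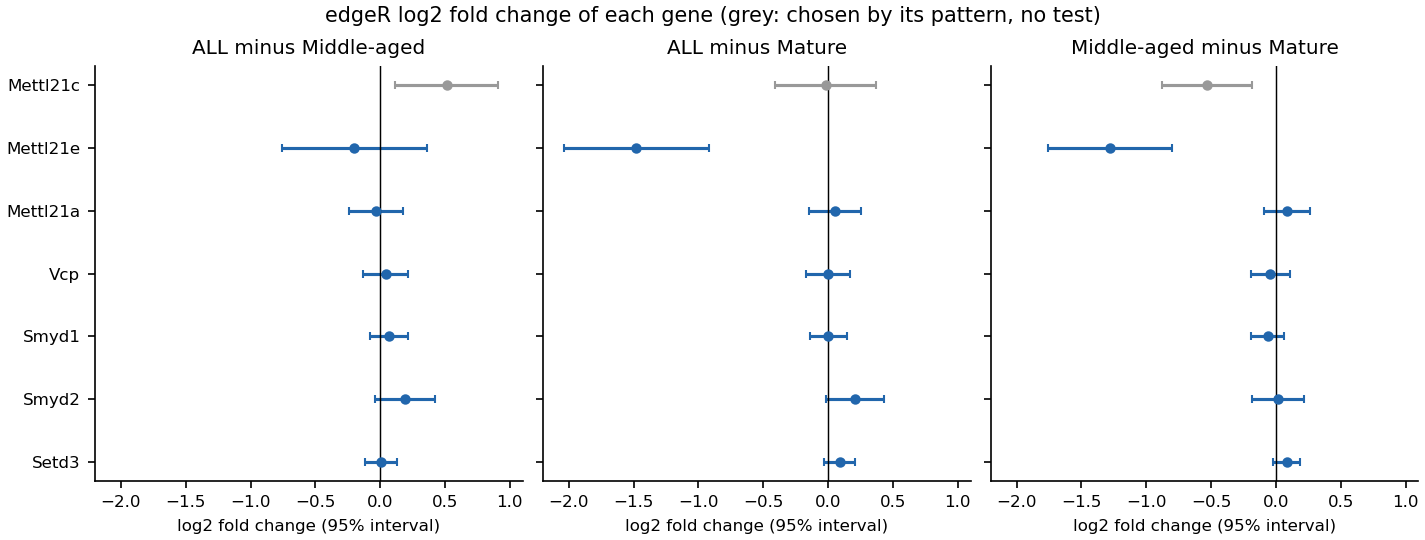
edgeR log2 fold change of each gene in 3 comparisons, with points for the estimate and bars for its 95% interval; Mettl21c, chosen by its pattern, is grey. The Mettl21e intervals lie below 0 in both comparisons with Mature mice, and every interval of Mettl21a, Vcp, Smyd1, Smyd2 and Setd3 covers 0.

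Setd3, the actin histidine methyltransferase gene, gave different pictures in 2 units. By read counts it varied least of the 7 members, at 150, 144, 154 and 162 CPM in ALL mice, 134 to 164 CPM in Middle-aged mice (median 153) and 137 to 148 CPM in Mature mice (median 143). Its logFC was 0.08 (95% interval -0.02 to 0.19, adjusted p = 0.327) for Middle-aged minus Mature mice and 0.01 (-0.12 to 0.13) for ALL minus Middle-aged mice. In TPM as deposited, Middle-aged replicates 2 and 4 stood at 89.5 and 87.2 TPM and Mature replicate 1 at 85.8 TPM, while the other 14 mice lay between 48.3 and 62.1 TPM. The counts of these 3 mice, 8957 to 9426, were inside the range of the others, 7259 to 11247, and their CPM was 134 and 147 in the 2 Middle-aged mice and 137 in the Mature mouse, against 140 to 164 in the other 14. The TPM-to-CPM ratio of Setd3, scaled to its own median, was 1.70, 1.73 and 1.70 in them and 0.936 to 1.09 in the rest. A highest ratio over 1.5 times the lowest was found in 3.52% of 12388 genes with a mean logCPM over 0, and Setd3, at 1.84, was the one member among them; the other 6 members were between 1.01 and 1.12. In TPM its mean was 52.2 ± 3.5 in ALL, 67.0 ± 16.9 in Middle-aged and 56.7 ± 13.1 in Mature mice, whereas the read counts gave 152 ± 7.4 CPM in ALL, 152 ± 10.5 CPM in Middle-aged and 143 ± 3.5 CPM in Mature mice (SD). The table lists 12 RefSeq transcripts for Setd3, and the part of transcript choice in its TPM was not tested.

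**Figure D4:**
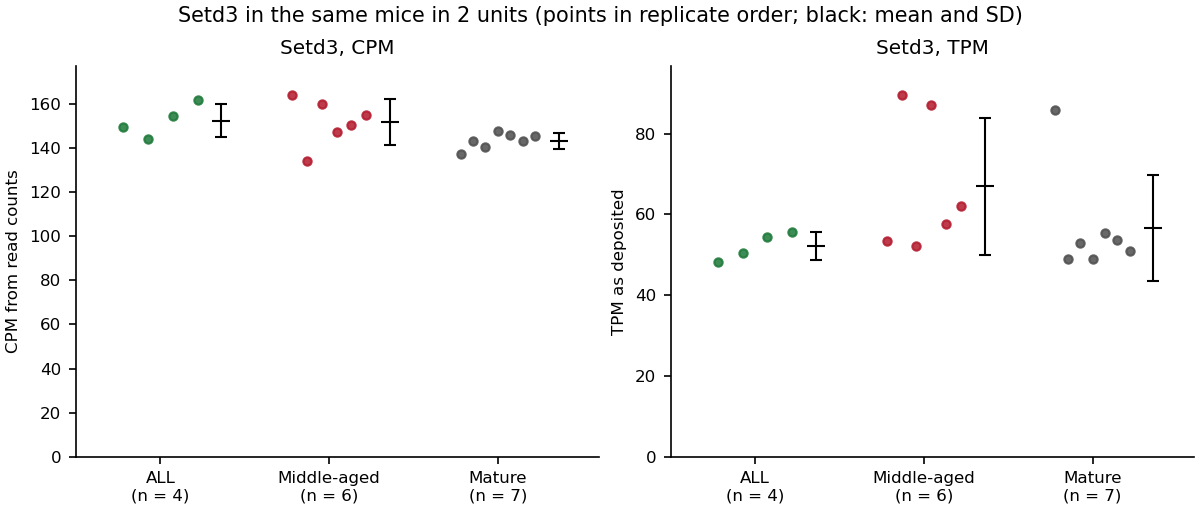
Setd3 in the same 17 mice as CPM from read counts (left) and as deposited TPM (right), axes from 0, points in replicate order within each group, black bars for mean and SD. In TPM 2 Middle-aged mice and 1 Mature mouse sit between 85.8 and 89.5, apart from the other 14, and in CPM the same mice lie at 134 to 147.

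Set against all genes, 1721 of 16731 tested genes (10.3%) were called for Middle-aged minus Mature mice at a false discovery rate under 0.05, 794 higher and 927 lower, and 1 of the 6 members open to the test, Mettl21e, was among them. For ALL minus Mature mice 1087 genes (6.5%) were called, again with Mettl21e. For ALL minus Middle-aged mice edgeR called 0 genes (0%), although 603 had an unadjusted p under 0.05, and DESeq2 called 5. Groups that do not overlap in CPM were found for 4.04% of genes between Middle-aged and Mature mice and for 6.04% between ALL and Mature mice, in both cases with Mettl21e alone of the 7 members, and for 0.478% between ALL and Middle-aged mice, with no member. With 1 of 6 genes, the share of members called cannot be set apart from the background.

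Among the 21 pairs of members, 17 had a correlation under 0.4 in size across the 17 mice. The highest was that of Vcp with Smyd2, at r = 0.74 (Spearman 0.76), 0.83 after group means were subtracted and 0.69 without the 2 mice farthest from the median of Smyd2. Vcp averaged 511 CPM in high-share and 578 CPM in low-share Mature mice, and 515 and 551 CPM in the same classes of Middle-aged mice. In ALL mice it averaged 522 CPM (n = 1) and 558 CPM. The part of the mitochondrial share in the correlation of Vcp with Smyd2 was not tested. The second was that of Mettl21c with Smyd1, at r = 0.69 (Spearman 0.55), 0.64 after group means were subtracted and 0.50 without Middle-aged replicates 5 and 6. Mettl21c and Mettl21e had r = 0.15 (Spearman 0.24), -0.28 after group means were subtracted and 0.41 without Mature replicate 6 and ALL replicate 2. These values describe 17 libraries that share their groups and were sequenced to 49774656 to 72640511 counts.

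Genes whose log2 CPM followed Mettl21c most closely over the 17 mice, of 12401 compared, were Afap1l1, an actin filament associated protein gene (r = 0.87), the spermine oxidase gene Smox (0.87), the muscle enolase gene Eno3 (0.86), the methionine sulfoxide reductase gene Msrb1 (0.84) and the lactate dehydrogenase gene Ldha (0.83). Smox averaged 296 CPM in ALL, 221 CPM in Middle-aged and 310 CPM in Mature mice, and Eno3 averaged 5044, 4399 and 5036 CPM in the same groups. The closest opposite patterns were those of Relch (-0.78), Arid5b (-0.78), the mast cell chymase gene Cma1 (-0.77), the transcription factor gene Klf4 (-0.75) and Klhl9 (-0.74). Klf4 averaged 9.47 CPM in ALL, 13.1 CPM in Middle-aged and 8.95 CPM in Mature mice. These genes were picked for their r with Mettl21c, itself chosen by its pattern over the same mice. Their group means are not independent of that choice and give the pattern no further support. After group means were subtracted the 5 positive genes kept r of 0.72 to 0.81, yet none of the 10 was among the 5 highest or 5 lowest by that measure, so the ranking depends on how the groups are treated. Among the members, only Smyd1 stood high on this scale, at percentile 99.4 of r.

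Vcpkmt (also Mettl21d), which encodes another lysine methyltransferase of VCP, rose with age where Mettl21e fell. It had 2.52, 3.19, 2.44 and 2.87 CPM in ALL mice, 2.14 to 2.71 CPM in Middle-aged mice (median 2.54) and 1.70 to 2.34 CPM in Mature mice (median 1.91). The ALL mice lay wholly above the Mature mice and the Middle-aged mice overlapped both. The edgeR logFC was 0.52 (SE 0.11, adjusted p = 0.0111) for ALL minus Mature mice and 0.36 (SE 0.10, adjusted p = 0.031) for Middle-aged minus Mature mice, and the first call stood under 25 of 26 alternatives and the second under 14. For ALL minus Middle-aged mice it was 0.16 (SE 0.12, adjusted p = 0.9997).

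Of 16 tested relatives of the METTL21 genes (class I protein methyltransferases), 2 rose and 0 fell for Middle-aged minus Mature mice, with a median logFC of 0.14 against 0.01 over all genes, where 10.3% of all genes were called. These were Vcpkmt and Mettl11b (logFC 0.33, SE 0.08, adjusted p = 0.0119), an N-terminal methyltransferase gene that was called under all 26 alternatives. In ALL against Mature mice, where 6.5% of all genes were called, 3 rose and 0 fell (median 0.20), Vcpkmt, Mettl11b (logFC 0.36, called under 21 alternatives) and Fam173a (0.35, called under 19), a mitochondrial lysine methyltransferase gene. Of 23 other SMYD and SET domain genes, 2 rose and 2 fell for Middle-aged minus Mature mice (median -0.04). Smyd3 rose (logFC 0.39, SE 0.11, adjusted p = 0.0297), as did Smyd5 (0.27, SE 0.08, adjusted p = 0.0479), while the histone methyltransferase genes Ehmt1 (-0.27, SE 0.06, adjusted p = 0.0118) and Kmt5c (-0.49, SE 0.12, adjusted p = 0.0135) fell. The Smyd3 and Smyd5 calls stood under 16 and 8 alternatives and those of Ehmt1 and Kmt5c under 25 each. In ALL against Mature mice 0 rose and 2 fell, Ehmt1 (-0.26) and the polycomb gene Ezh1 (-0.28), under 15 and 13 alternatives. Of 9 arginine methyltransferase genes, Prmt2 rose for Middle-aged minus Mature mice (0.47, SE 0.13, adjusted p = 0.0218) and Prmt1 for ALL minus Mature mice (0.31, SE 0.08, adjusted p = 0.0252), calls that stood under 23 and 19 alternatives. The counts in these lists and in those around Vcp and Smyd1 stand beside the 10.3% and 6.5% of all genes called, and nothing is read from them about a list as a whole.

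Around Vcp, 28 cofactor and adaptor genes were tested, and 3 rose and 0 fell for Middle-aged minus Mature mice (median logFC 0.03), near the 10.3% of all genes called there. These were the UBX domain genes Ubxn10 (logFC 1.70, SE 0.35, adjusted p = 0.0045), Ubxn11 (0.69, SE 0.17, adjusted p = 0.0147) and Ubxn6 (0.24, SE 0.07, adjusted p = 0.0421). Ubxn10 and Ubxn11 were low, at 1.03 and 0.946 CPM in Middle-aged mice against 0.318 and 0.589 CPM in Mature mice, and the call for Ubxn6 stood under 9 of 26 alternatives. For ALL minus Mature mice Ubxn10 rose (1.76) and the ubiquitin ligase gene Ube4b fell (-0.36), Ube4b under 16 alternatives. Among 12 genes for substrates of these enzymes, 1 rose, Hspa5 for the chaperone BiP of the endoplasmic reticulum, at logFC 0.30 (SE 0.08, adjusted p = 0.0256) for Middle-aged minus Mature mice and 0.33 (SE 0.09, adjusted p = 0.0387) for ALL minus Mature mice, under 21 and 16 alternatives. Among 12 genes of myosin folding and of Smyd1 partners, Mef2c, a muscle transcription factor gene, rose to 728 CPM in Middle-aged mice, against 537 CPM in Mature mice (logFC 0.44, SE 0.07, adjusted p = 7.16e-04), and was also higher in ALL than in Mature mice (0.38, SE 0.08, adjusted p = 0.0103). Fhod3, a sarcomeric formin gene, rose as well for Middle-aged minus Mature mice (0.33, SE 0.09, adjusted p = 0.0188), under 22 alternatives. Unc45b, the myosin chaperone that works with SMYD1, had a logFC of 0.05 (SE 0.07) there and passed in no comparison. Of 14 genes for the supply and removal of S-adenosylmethionine, 0 passed in any comparison. In none of these lists did a gene pass for ALL minus Middle-aged mice.

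Markers of other cells moved with age in the same libraries. A marker is said to fall here if it passed the test with a negative logFC. For Middle-aged minus Mature mice 10.3% of all tested genes were called. All 6 Schwann cell markers fell in Middle-aged against Mature mice, with summed levels of 34.3 to 84.3 CPM in Middle-aged mice and 69.9 to 390 CPM in Mature mice, and 5 of 6 endothelial markers fell, with sums of 123 to 166 CPM and 181 to 248 CPM in the same groups. For smooth muscle and pericyte markers 5 of 6 fell, with sums of 243 to 315 CPM in Middle-aged and 336 to 399 CPM in Mature mice. In the same comparison 3 of 6 tendon (32.2 to 50.1 CPM and 34.7 to 101 CPM), 2 of 4 satellite cell (18.6 to 22.8 CPM and 16.5 to 25.8 CPM) and 2 of 5 fibroblast markers (289 to 551 CPM and 252 to 609 CPM) fell. Of the markers that did not pass, 1 tendon and 2 fibroblast markers had a positive logFC. The sums of the tendon, satellite cell and fibroblast lists overlapped between the groups. No marker of these lists was at 0 in any mouse. In ALL mice the sums were 45.2 to 106 CPM for Schwann cell, 140 to 167 CPM for endothelial and 284 to 313 CPM for smooth muscle and pericyte markers. Against Mature mice 1 of 6 Schwann cell, 4 of 6 endothelial and 5 of 6 smooth muscle and pericyte markers fell in ALL mice. In that comparison 6.5% of all tested genes were called. All 5 adipocyte markers had a negative logFC for ALL minus Middle-aged mice (median -2.07), and 0 passed the test there. For ALL minus Mature mice, where 6.5% of all tested genes were called, 2 of the 5 fell. The sums of the 5 were 120 to 149 CPM in ALL, 124 to 307 CPM in Middle-aged and 183 to 293 CPM in Mature mice. In at least 1 Middle-aged mouse 1 marker was at 0. Of 4 macrophage markers 0 passed in any comparison. In bulk muscle, fewer cells of a type and less RNA per cell cannot be told apart, and the part of cell makeup in the Mettl21e and Mettl21c values was not tested.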

How the data were processed

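Counts, FPKM and TPM per gene were deposited by the authors, and the counts are whole numbers with no normalization found in them. Submitters' processing notes name mm10, HISAT2 2.1.0 and featureCounts, whereas the paper names STAR and StringTie, and which of them counted the reads could not be settled. One label names adipose and liver as the extracted tissue, and the tissue label, gastrocnemius, was used. Another 18 columns of values per sample were not used.

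Genes were filtered (filterByExpr), scaled by TMM and tested in edgeR 4.0.16 by quasi-likelihood over all 17 mice in 1 fit, with Benjamini-Hochberg adjustment over 16731 genes and a prior count of 0.125. Each mouse is 1 sample. The fit was tested on simulated data. No pair of replicates of the 42 within groups was a repeat (chi-square per gene of at least 19.7). The median SE of a logFC was 0.121 for Middle-aged minus Mature mice and 0.14 for ALL minus Middle-aged mice. Members, lists and markers were chosen with earlier results of these data known. Named genes were the members, called list genes, neighbours and the 5 genes most like and most unlike Mettl21c. Alternatives were DESeq2 1.42.0, other scaling, no filter, only the groups compared, a replicate block, a mitochondrial class term, no mitochondrial genes, a prior count of 2, each mouse left out and, chosen after seeing the data, low-share libraries alone.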

Additional observations from a re-analysis of the deposited data

Results flagged for a closer look

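In 48 sets of values (the members and Vcpkmt in each group, in CPM and TPM), 5 held a mouse far from the others of its group, where chance gives about 1 in 20. Mature replicate 6 had the highest Mettl21e of its group, at 9.28 CPM (next 6.26 CPM) and 5.33 TPM (next 3.38 TPM). Mature replicate 1 had the highest Setd3 TPM of its group, 85.8 TPM against 55.3 TPM in the next mouse. Mature replicate 2 had the highest Vcpkmt of its group, at 2.34 CPM (next 1.97 CPM). Middle-aged replicate 1 had the lowest Vcpkmt of its group in TPM, at 2.05 TPM (next 2.62 TPM).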

How the results depend on the processing

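For the 6 members open to the test, all 468 values under the alternatives kept their side of the threshold; 33 changed sign, each for a difference that passed no test. DESeq2 called 5 genes for ALL minus Middle-aged and 1699 for ALL minus Mature mice. The replicate block pairs mice of the same replicate number, which does not always match the number in brackets in the sample titles. With this block, 1584, 0 and 615 genes were called for Middle-aged minus Mature, ALL minus Middle-aged and ALL minus Mature mice. Mice of the same replicate number had correlations of -0.29 to 0.41 over 14 pairs (median 0.11, against -0.01 over 80 other pairs). They matched best with their own replicate number in 10 of 28 checks. The study names no block, and whether the replicate numbers mark a block was not settled. The numbers in brackets were not examined as a block. In low-share libraries alone, an alternative chosen after seeing the data, 456, 1 and 401 genes were called in the same comparisons. With each mouse left out, the counts were 1310 to 1816 for Middle-aged minus Mature, 0 to 1 for ALL minus Middle-aged and 430 to 1096 for ALL minus Mature mice. For ALL minus Mature mice, leaving out ALL replicate 3 gave 430 calls, leaving out ALL replicate 4 gave 650, and leaving out Mature replicate 6 gave 707. The causes were not tested. With 4 ALL mice, a difference in a low gene such as Mettl21e carried an SE of 0.27. Of the 10 genes most like or unlike Mettl21c, 5 were also picked by Spearman's rho. Of 42 mean CPM values of members under other scaling, 18 moved by more than 1 SD, all upward and all where mitochondrial genes were left out.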
